A study of Homo sapiens with 2 samples.

Results

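The genes examined were 7 markers and drivers of the mesenchymal state, and the data were the chromatin regions called for MLL3 and for GRHL2 at them in KYSE510, an established esophageal squamous cell carcinoma line. Each gene was taken with 25 kb on either side in the hg19 genome, and a region belonged to a gene when its summit, the position of its highest signal, lay in that window. The windows held 3 of the 12150 MLL3 regions and 67 of the 152864 GRHL2 regions on chromosomes 1 to 22, X and Y. The genes were ZEB1, ZEB2, SNAI2, TWIST1, VIM, CDH2 and FN1, and their windows made up 1.01 Mb. MLL3 and GRHL2 had been mapped by chromatin immunoprecipitation and sequencing (ChIP-seq), with 1 library for each antibody, from formalin-fixed cells of the same line, and each was called against an input. The labels name no treatment of these cells, and siRNA-treated cells that the design text mentions were not analysed here. Neither antibody had a replicate, so the values come without replicate error, and the read depth is unknown.

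In epithelial-mesenchymal transition (EMT), epithelial cells lose cell-cell junctions and gain motility. ZEB1 and ZEB2 are zinc-finger homeobox repressors that bind E-box sequences and silence the E-cadherin gene. SNAI2 (Slug) and TWIST1 are further transcription factors that drive the transition, and SNAI2 is also known from basal cells of squamous epithelia. VIM (vimentin, an intermediate filament protein), CDH2 (N-cadherin) and FN1 (fibronectin, a matrix glycoprotein) are genes by which mesenchymal cells are recognised. GRHL2, a Grainyhead-like factor of epithelial cells, is known to repress ZEB1 in epithelial lines, and ZEB1 in turn represses GRHL2. MLL3 (KMT2C) is a histone methyltransferase that marks enhancers. Levels of the transcripts were not analysed here, so nothing below says which of the genes KYSE510 expresses.

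Promoter sequences show what lies at the starts of 5 of the genes. RefSeq promoter sequences (GRCh38.p14) were matched by symbol for ZEB1, ZEB2, VIM, CDH2 and FN1, with 12 start sites in all, 7 of them at ZEB1. SNAI2 and TWIST1 were not matched. Those printed are the 250 bases before a start, 5′ to 3′, with matches to the searched motifs in capitals. VIM is shown because a GRHL2 region covers its start, ZEB1 because 1 of its starts holds the most E-boxes, and FN1 because neither factor had a region near its start.
VIM (GRCh38.p14 chr10:17227991-17228240, plus strand): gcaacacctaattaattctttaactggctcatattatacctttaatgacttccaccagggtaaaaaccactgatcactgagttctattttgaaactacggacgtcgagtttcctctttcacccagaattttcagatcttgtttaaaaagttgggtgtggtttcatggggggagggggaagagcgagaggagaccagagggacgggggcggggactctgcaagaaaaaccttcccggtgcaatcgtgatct
ZEB1 (GRCh38.p14 chr10:31318966-31319215, plus strand): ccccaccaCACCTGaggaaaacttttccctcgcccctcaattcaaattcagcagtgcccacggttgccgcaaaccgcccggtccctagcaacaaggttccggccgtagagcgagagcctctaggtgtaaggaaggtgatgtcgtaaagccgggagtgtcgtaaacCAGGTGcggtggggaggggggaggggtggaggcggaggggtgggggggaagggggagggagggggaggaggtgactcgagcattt
FN1 (GRCh38.p14 chr2:215436069-215436318, minus strand): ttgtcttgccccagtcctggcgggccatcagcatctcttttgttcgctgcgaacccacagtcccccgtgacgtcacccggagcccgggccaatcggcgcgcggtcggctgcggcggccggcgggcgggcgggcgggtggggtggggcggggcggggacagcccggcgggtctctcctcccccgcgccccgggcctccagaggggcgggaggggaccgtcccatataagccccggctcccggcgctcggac

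None of the 12 promoter sequences held the Grainyhead-like motif AACCNGTT on either strand, in the 250 bases before or the 50 after the start. That motif was present in 606 of all 35116 RefSeq promoter sequences (1.73%), and nothing about GRHL2 binding follows from its absence in 12. The E-box CACCTG, or CAGGTG on the other strand, was found at 2 of the 7 ZEB1 starts and at no start of the other 4 genes, beside 20.6% of all promoters. In the ZEB1 sequence printed above, the matches began 242 and 85 bases before the start. A further match lay 34 bases after it. The AP-1 motif TGANTCA occurred once, 102 bases before the second CDH2 start, beside 7.71% of all promoters. The VIM promoter held 8 CpG dinucleotides and had 46.0% G and C, the FN1 promoter 32 and 76.4%, beside a median of 11 and 58.0% over all promoters. These matches describe the letters only.

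The windows differed widely in what they held. ZEB1, SNAI2 and VIM each had 1 MLL3 region, and ZEB2, TWIST1, CDH2 and FN1 had none. GRHL2 regions numbered 19 at VIM, 14 at ZEB1, 11 each at SNAI2 and TWIST1, 9 at ZEB2, 2 at CDH2 and 1 at FN1. Among genome bins of the length of each window, the share with as many or more was 0.978% for VIM, 34.7% for ZEB1 and 38.7% for ZEB2. It was 4.14% for SNAI2, 3.68% for TWIST1, 83.4% for CDH2 and 81.8% for FN1. The fold enrichment of a region is the authors' ratio of ChIP signal at its summit to local background, and it describes the region within its own list. Most GRHL2 regions at these genes were weak. Their median fold was 2.57, with a range of 1.82 to 24.0, against a median of 2.77 over the GRHL2 list outside the windows. A −log10 q of 2 or more, a level met by the whole MLL3 list, was reached by 9 of the 67 (13.4%), beside 19.7% of the whole GRHL2 list. A q of at most 0.05 was reached by 15 of the 67 (22.4%), these 9 included, beside 31.1% of the whole list. The other 52 (77.6%) had a q above 0.05, beside 68.9% of the list. The 9 stronger regions had a median width of 964 bp (512 to 1537 bp) and the other 58 a median of 330 bp (265 to 670 bp). In the whole list the same classes had medians of 707 and 323 bp.

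**Figure D1:**
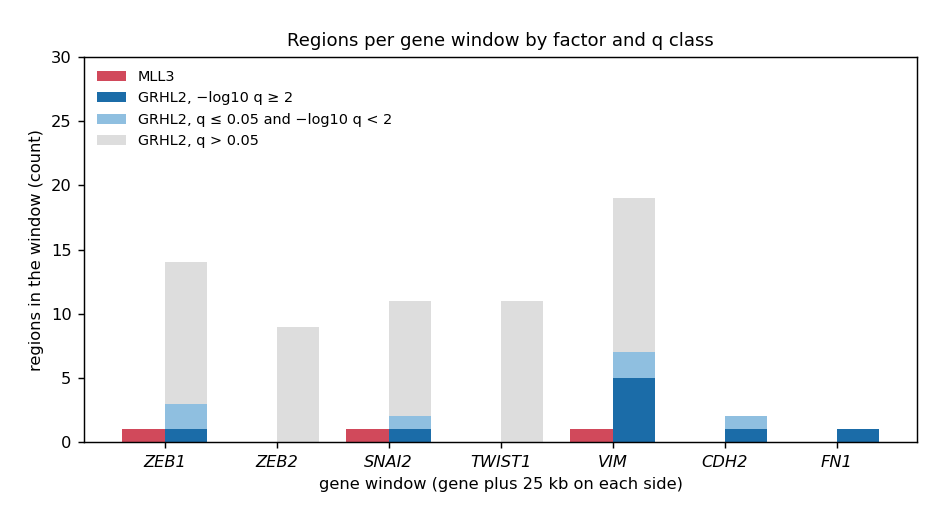
Number of regions (y axis) in each gene window (x axis), with MLL3 in red and GRHL2 in blue and grey, split by the authors' q value. VIM held 5 of the 9 GRHL2 regions at a −log10 q of 2 or more, and all 9 regions at ZEB2 and all 11 at TWIST1 had a q above 0.05.

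ZEB1 carried the region of highest fold for each factor among the 7 genes. The GRHL2 region (chr10:31642446-31643431, 986 bp) had a fold of 24.0 and a −log10 q of 68.45. It ranked 2428th by fold, so that 1.59% of the GRHL2 list was as high or higher. The MLL3 region (chr10:31642634-31642920, 287 bp) lay inside it, with a fold of 9.31 and a −log10 q of 14.55, and 23.6% of the MLL3 list was at or above that fold. The summits were 23 bp apart, 34.7 kb (MLL3) and 34.8 kb (GRHL2) after the gene start and within the 211 kb gene. Gene bounds were known only to the kb, so distances from a start can be off by up to about 1 kb, and exons and introns were not assigned. All distances are from 1 start per gene, the outer bound of the gene. RefSeq has further starts for ZEB1 and CDH2, and distances from those were not computed. The CDH2 starts lie far apart (promoters at chr18:28036642-28036891 and chr18:28177131-28177380 in GRCh38.p14). This was the only MLL3 region in the ZEB1 window, and the 250 kb on either side of the window held none. Bins of the genome with the same length as the window (261 kb) held at least 1 MLL3 region in 43.2% of cases and at least 1 GRHL2 region at a −log10 q of 2 or more in 66.0%.

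The rest of the ZEB1 window was weakly marked. Its other 13 GRHL2 regions had folds of 1.82 to 3.30, and 11 of them had a q above 0.05. Of the 13, 10 were spread along the gene, from 15.6 to 169.6 kb after the start. The region nearest to the start (chr10:31607667-31607931), 0.2 kb before it, had a fold of 2.54 and a −log10 q of 0.54, a fold that 59.7% of the list reached or exceeded. The strongest of the 13, at 130.9 kb, had a fold of 3.30 and a −log10 q of 1.65. The strong GRHL2 signal was at 1 place inside the gene, and the region at the start was weak.

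ZEB2, the closest relative of ZEB1 in the set, had no comparable site. None of its 9 GRHL2 regions reached a −log10 q above 0.76, and their folds ran from 1.83 to 2.80. In the 3 weakest, the −log10 q was 0. The highest fold, 2.80, was that of the region nearest to the start (chr2:145295702-145295972), 17.7 kb before it. Of the list, 48.7% had that fold or more. No MLL3 region lay in the window or within 250 kb of it, and the nearest (chr2:144859947-144860384, fold 13.3) was 417.8 kb after the start. Of genome bins of 186 kb, the length of this window, 35.5% held at least 1 MLL3 region and 58.5% at least 1 GRHL2 region at a −log10 q of 2 or more.

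**Figure D2:**
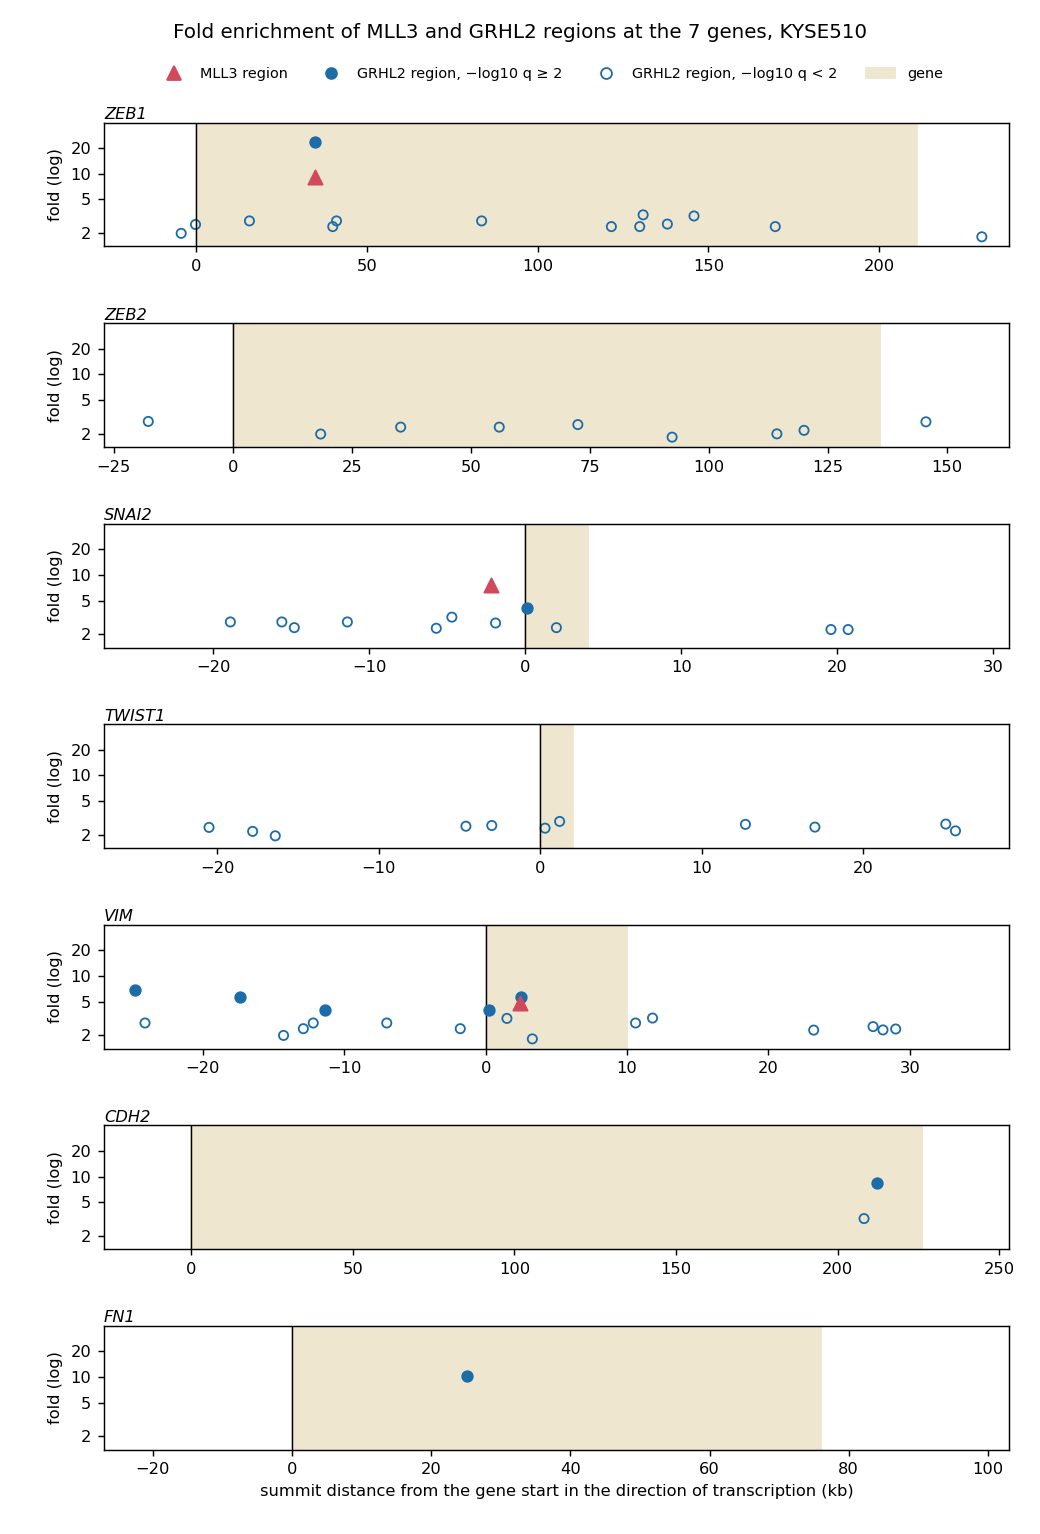
Fold enrichment (y axis, log scale) of every MLL3 region (red triangles) and GRHL2 region (circles, filled at a −log10 q of 2 or more) against the distance of its summit from the gene start in kb (x axis, positive in the direction of transcription, a scale of its own for each gene), with the gene shaded. Both factors coincide at 34.7 to 34.8 kb in ZEB1 and at 2.4 to 2.5 kb in VIM, and ZEB2 and TWIST1 show open circles alone, all below a fold of 3.

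SNAI2 carried both factors close to its start, but its MLL3 region overlapped a weak GRHL2 region and not the strongest one. A GRHL2 region (chr8:49833004-49834540), at 1537 bp the widest in the 7 windows, covered the gene start, as given to the kb, and had its summit 0.1 kb after it. Its fold was 4.11 and its −log10 q 3.18, and 11.7% of the GRHL2 list was at or above that fold. The MLL3 region (chr8:49836076-49836351) had its summit 2.2 kb before the start, with a fold of 7.69 and a −log10 q of 10.65, and 35.3% of the MLL3 list reached that fold. It did not overlap the GRHL2 region at the start. It overlapped a weaker one (chr8:49835777-49836428, fold 2.72, −log10 q 0.90, q above 0.05), with 378 bp between the summits. The overlap of both factors at SNAI2 thus rests on a GRHL2 region below the stricter threshold. The other 9 GRHL2 regions had folds of 2.28 to 3.19 and lay between 20.7 kb after and 18.9 kb before the start. Genome bins as long as this window, 54 kb, held an MLL3 region in 14.4% of cases and a GRHL2 region at a −log10 q of 2 or more in 30.4%.

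TWIST1, a basic helix-loop-helix factor, had as many GRHL2 regions as SNAI2, and all 11 were weak. Their folds ran from 1.95 to 2.88, and all 11 had a q above 0.05. The highest (chr7:19155669-19155998, fold 2.88, −log10 q 1.11) lay 1.2 kb after the start, inside the gene. The region nearest to the start (chr7:19156510-19157081, 572 bp) was 0.3 kb after it and had a fold of 2.40 and a −log10 q of 0.64. The window held no MLL3 region. The nearest (chr7:19118685-19118974) was 38.2 kb after the start, outside the window, with a fold of 3.42 and no overlapping GRHL2 region. Of genome bins of this length, 52 kb, 14.0% held an MLL3 region and 29.7% a GRHL2 region at a −log10 q of 2 or more, and most such bins thus held neither kind.

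VIM had the most GRHL2 regions of the 7 genes, both in all and at the stricter threshold. Its window of 60 kb held 19, of which 5 had a −log10 q of 2 or more. The 2 inside the gene were a region over the start as given to the kb (chr10:17269592-17270976, 1385 bp, fold 4.0, −log10 q 2.79, summit 0.2 kb after the start) and one with its summit 2.5 kb after it (chr10:17271926-17272889, fold 5.60, −log10 q 6.27). The region at 2.5 kb carried the MLL3 region (chr10:17272275-17272806, fold 4.87, −log10 q 4.01), with 73 bp between the summits. That MLL3 region was low in its list, of which 83.1% reached its fold. Of the GRHL2 list, 7.32% reached the fold of the GRHL2 region. The 2 shares are not comparable, since all MLL3 regions but only 19.7% of GRHL2 regions had a −log10 q of 2 or more. The GRHL2 region ranked 11185th by fold, and 30080 GRHL2 regions met that threshold.

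The other 3 stronger GRHL2 regions at VIM lay before the start and met no MLL3 region. They were 24.8 kb (chr10:17244780-17245440, fold 6.80, −log10 q 9.25), 17.4 kb (chr10:17252259-17253084, fold 5.60, −log10 q 6.27) and 11.4 kb (chr10:17258309-17258820, fold 4.0, −log10 q 2.79) away from it. The first is the highest GRHL2 fold at VIM and lies 0.2 kb inside the edge of the window. The remaining 14 regions had folds of 1.82 to 3.20, and 12 of them had a q above 0.05. Among genome bins of 60 kb, 15.7% held an MLL3 region, 32.4% held a GRHL2 region at a −log10 q of 2 or more, and 0.978% held 19 or more GRHL2 regions of any strength.

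CDH2 and FN1 held few regions, but each had 1 strong GRHL2 region. As few or fewer GRHL2 regions were found in 22.8% of genome bins of the CDH2 length and 30.0% of those of the FN1 length. The only region at FN1 was a GRHL2 region (chr2:216275224-216276094, 871 bp) in the gene, 25.2 kb after the start, with a fold of 10.4 and a −log10 q of 19.53, a fold reached by 3.63% of the list. CDH2 had 2 GRHL2 regions, both towards the far end of the 226 kb gene. The stronger (chr18:25544583-25545749, 1167 bp) lay 212.1 kb after the start with a fold of 8.43 and a −log10 q of 14.64, and 4.46% of the list reached that fold. The weaker (chr18:25548695-25548965) lay at 208.2 kb with a fold of 3.20 and a −log10 q of 1.36. None of these 3 regions met an MLL3 region. The MLL3 regions nearest to the starts were 298.2 kb from the FN1 start (fold 11.5) and 316.8 kb from the CDH2 start (fold 5.76). Both lay past the end of the gene, that of CDH2 within 100 kb of it. The 250 kb on each side of the window held 3 MLL3 regions at CDH2 and 1 at FN1. Bins of the length of the CDH2 window (276 kb) held an MLL3 region in 45.0% of cases and a GRHL2 region at a −log10 q of 2 or more in 67.3%, and bins of 126 kb, the length of the FN1 window, in 27.3% and 49.1%.

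**Figure D3:**
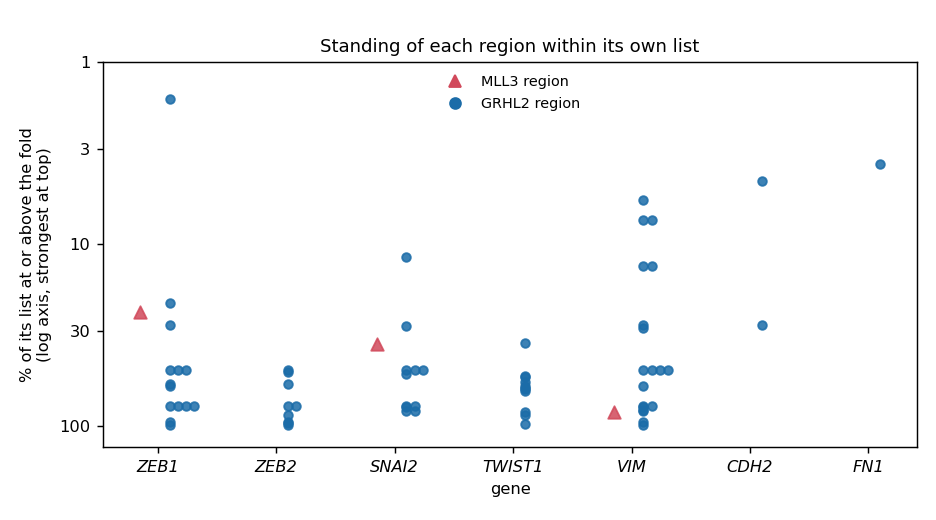
Share of the whole list of its factor with the same or a higher fold enrichment (y axis, log scale, strongest at the top) for each MLL3 region (red triangles) and GRHL2 region (blue circles) at each gene (x axis). The GRHL2 regions of ZEB1 (1.59%), FN1 (3.63%) and CDH2 (4.46%) stand highest, and the MLL3 region of VIM (83.1%) stands lowest of the 3 MLL3 regions. Shares of the 2 factors are not comparable, since the MLL3 list ends at a −log10 q of 2.07 and 19.7% of the GRHL2 list reached 2.

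A GRHL2 summit lay within 2 kb of the start of ZEB1, SNAI2, TWIST1 and VIM, and at a −log10 q of 2 or more this held for SNAI2 and VIM. Of genome bins of 4 kb, the same span, 16.5% held a GRHL2 summit and 3.73% one at that threshold. These bins are not gene starts, and the share over all gene starts was not analysed here. No GRHL2 summit lay within 10 kb of the start of ZEB2, CDH2 or FN1. No MLL3 summit was within 2 kb of any of the 7 starts, and with a limit of 5 kb there were 2 genes, SNAI2 (2.2 kb before) and VIM (2.4 kb after). An MLL3 summit was in 1.47% of bins of 4 kb and in 3.38% of bins of 10 kb. Of the 67 GRHL2 summits, 24 lay before a start, 29 in a gene and 14 after an end, and SNAI2, TWIST1 and VIM held 21 of the 24. The lengths searched were unequal, 0.175 Mb before the starts, 0.665 Mb in the genes and 0.175 Mb after the ends. Pooled over the genes there were 137 per Mb before a start, 43.6 in a gene and 80.0 after an end. The long genes supply most of the gene length, and the pooled order is not that of the single genes. By the lengths as given, only ZEB1 was denser before its start than in the gene. It had 2 regions in the 25 kb before the start and 11 in its 211 kb. SNAI2 had 7 before the start and 2 in its 4 kb, and VIM 9 and 4 in its 10 kb.

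All 3 MLL3 regions overlapped a GRHL2 region by at least 1 bp (100%, exact Clopper-Pearson 95% interval 29.2 to 100%), beside 85.0% of the whole MLL3 list. The interval includes the share of the whole list. When only regions with a −log10 q of 2 or more were used for both factors, the share was 66.7%, because SNAI2 lost its GRHL2 partner. At 5 or more, 1 of the 2 MLL3 regions left overlapped a GRHL2 region. Seen from GRHL2, 3 of the 67 regions (4.48%, 0.933 to 12.5%) overlapped an MLL3 region, beside 6.15% of the whole GRHL2 list. Among the 9 GRHL2 regions at a −log10 q of 2 or more there were 2 that did so, at ZEB1 and VIM (22.2%, 2.81 to 60.0%), beside 24.5% of all GRHL2 regions at that threshold. These intervals cover the counting of regions only. The 7 stronger GRHL2 regions without MLL3 included those of FN1 and CDH2, whose folds of 10.4 and 8.43 were next after ZEB1. Absence from the MLL3 list is not absence of MLL3, since that list ends at a threshold.

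Counted at any strength, GRHL2 regions were dense at VIM, TWIST1 and SNAI2 and sparse at CDH2 and FN1. In the windows together there were 2.96 MLL3 and 66.0 GRHL2 regions per Mb, against 4.07 and 51.1 per Mb elsewhere. The higher GRHL2 density did not hold at a −log10 q of 2 or more (8.87 per Mb in the windows, against 10.1 elsewhere). Against the pooled 250 kb on each side of the windows, the ratio over all GRHL2 regions was 0.889, although 5 of the 7 windows were denser than their own surroundings (CDH2 and FN1 were not). For MLL3 the same ratio was 0.450, with only 3 regions in the windows. At VIM, GRHL2 reached 317 per Mb in the window, against 174 per Mb in the 250 kb on each side and 59.7 per Mb on chromosome 10. SNAI2 had 204 per Mb, against 162 beside it and 41.4 on chromosome 8. TWIST1 had 212 per Mb, against 90.0 beside it and 77.5 on chromosome 7. At these 3 genes the window, the surroundings and the chromosome thus descended in that order. CDH2 (7.25 per Mb) and FN1 (7.94 per Mb) were sparse, against 12.0 and 22 beside them and 19.7 on chromosome 18 and 42.0 on chromosome 2. ZEB1 had 53.6 per Mb, against 36.0 beside it and 59.7 on chromosome 10, and ZEB2 48.4, against 24.0 beside it and 42.0 on chromosome 2. At a −log10 q of 2 or more the order changed. VIM (83.3 per Mb, against 11 on its chromosome) and SNAI2 (18.5, against 7.93) stayed above their chromosomes. FN1 (7.94, against 8.27), CDH2 (3.62, against 5.09) and ZEB1 (3.83, against 11) were below theirs, and TWIST1 and ZEB2 had 0, against 11.4 and 8.27. At SNAI2, FN1, CDH2 and ZEB1 the density rests on 1 such region each, so that it follows from the length of the window. For MLL3, the 250 kb on each side held 9 regions at VIM and 8 at SNAI2, or 18.0 and 16.0 per Mb, beside 4.46 and 3.22 per Mb on chromosomes 10 and 8. The 1 region inside each of these windows stood in a neighbourhood rich in MLL3 regions, whereas that of ZEB1 stood alone.

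**Figure D4:**
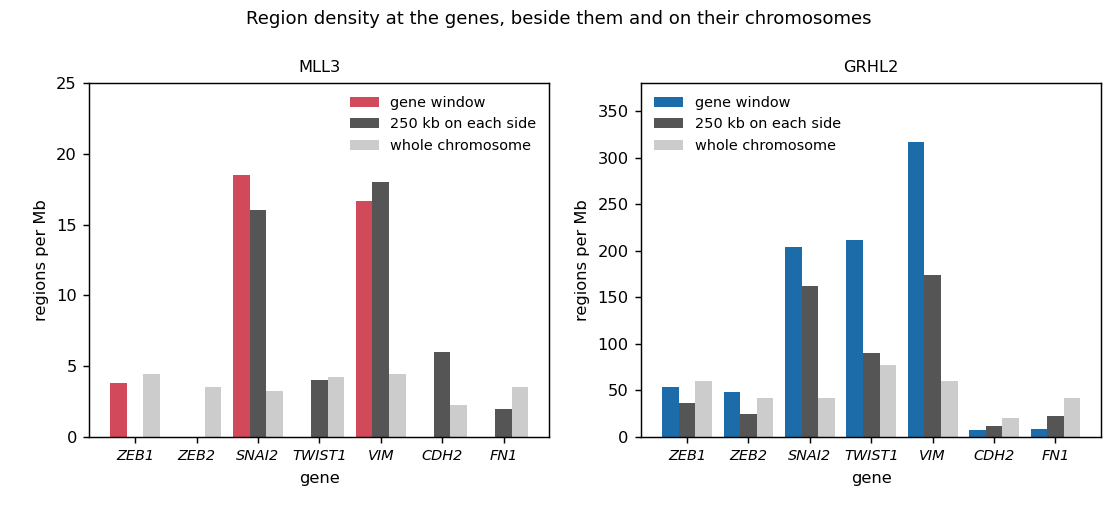
Regions per Mb (y axis) of MLL3 (left) and GRHL2 (right) in each gene window (coloured), in the 250 kb on each side of it (dark grey) and on its whole chromosome (light grey). GRHL2 was densest at VIM (317 per Mb) and sparsest at CDH2 (7.25 per Mb), and the MLL3 surroundings of VIM (18.0 per Mb) and SNAI2 (16.0 per Mb) stand out.

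Other transcripts lie near these genes, and their positions were not compared with the regions. In the RefSeq gene table, used for names only, ZEB1-AS1, ZEB2-AS1, VIM-AS1, CDH2-AS1 and FN1-DT are transcripts named after 5 of the genes. The next coding genes in its order are TRDMT1 and ST8SIA6 at VIM, HDAC9 and FERD3L at TWIST1, CLXN and PPDPFL at SNAI2, ATIC and MREG at FN1, and CHST9 and DSC3, a desmosomal cadherin gene, at CDH2. A region was assigned to a gene by position alone, and which gene it acts on was not tested.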

How the data were processed

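Regions came from the authors' deposited narrowPeak lists, 1 per antibody, called against input. Per the submitters' processing notes, BWA, Picard, MACS2 and deepTools were used with hg19, and versions or parameters are not given in the sources at hand. Fold enrichment (a ratio), −log10 p-value and −log10 q-value are the authors' deposited numbers. The lists end at different thresholds: the lowest −log10 q for MLL3 was 2.07 and the lowest −log10 p for GRHL2 was 1.30. The deposited score column and lines on other contigs (46 for MLL3, 345 for GRHL2) were not used. The files give no counts or depth.

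Counts, overlaps of at least 1 bp, ranks within a list and densities were computed in Python 3.11.15 with numpy 2.4.6 and scipy 1.17.1. The counting was tested on simulated lists. Densities and non-overlapping bins use each chromosome from its first to its last region. Region coordinates are 1-based in hg19. Motifs were searched in RefSeq promoter sequences (GRCh38.p14), and no coordinates were converted. Named were all MLL3 regions, all GRHL2 regions at a −log10 q of 2 or more, and for each gene the GRHL2 region of highest fold and the one nearest to the start. Others were named after their values were seen. No test was run, since each antibody had 1 library and regions are not replicates. Genes and lists were chosen with earlier results of these data known. A wider list of EMT genes was not analysed here, because no hg19 annotation was used.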

Additional observations from a re-analysis of the deposited data

How the results depend on the processing

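Of 72 alternative values for the summary results, 52 were classed as the same. For counts this meant within 1.5 times the count reported, and for shares within the 95% binomial interval. Densities and their ratios were not held to that limit. The GRHL2 density was classed as moved at 50.9 beside 66.0 per Mb, and the MLL3 density ratio as the same at 0.450 beside 0.727. Of the 170 alternatives, single genes included, 1 turned the direction. The 67 GRHL2 regions became 29 in the genes alone, 41 with a flank of 10 kb, 101 with 50 kb and 142 with 100 kb, and 9 and 6 at a −log10 q of 2 or more and of 5 or more. GRHL2 regions per Mb (66.0) were 43.6 in the genes alone, 50.9 with 10 kb, and 8.87 and 5.91 at those thresholds. At the same thresholds the median GRHL2 fold was 5.60 and 7.61, and the share of GRHL2 regions that met MLL3 was 22.2% and 16.7%. The share of MLL3 regions that met GRHL2 (100%) was 66.7% and 1 of 2 at those thresholds and 66.7% for summits within 100 bp, all within its wide interval. The 3 MLL3 regions became 6 with a flank of 100 kb. Genes with an MLL3 summit near the start numbered 0 within 2 kb and 2 within 5 or 10 kb. For GRHL2 there were 4, and 2 at a −log10 q of 2 or more. The density of GRHL2 regions was 1.29 times that elsewhere but 0.889 times that of the pooled 250 kb on each side of the windows. That pool gives every gene the same length, while the windows ran from 52 kb (TWIST1) to 276 kb (CDH2). VIM and SNAI2 supplied 87 and 81 of its regions. Gene by gene, 5 of the 7 windows were denser than their own surroundings. The pooled 0.889 thus does not show that the windows were sparser than their surroundings. For MLL3 the density was 0.727 times that elsewhere and 0.450 times that of the pooled 250 kb on each side. Most MLL3 regions of that pool lay at VIM and SNAI2, whose windows are short. The motif AACNNGTT was in 1 promoter, AACCNGTT in 0. Both lists are limited by their unequal thresholds and by a read depth that is unknown. No paired analysis was possible because neither factor has a second library.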

Other observations

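Many folds in the GRHL2 list fell on regular steps, and not at weak regions alone. The most common in the whole list were 2.40 (19945 regions, 13.0%) and 2.80 (19900 regions, 13.0%), and they made up 10 and 11 of the 67 regions at the mesenchymal genes. In the list, 42.1% of folds were whole multiples of 0.400 within a tolerance of 0.001, and so were 34 of the 67. The strong regions of ZEB1 (24.0) and FN1 (10.4) were among these 34. The smallest width in the list, 265 bp, was that of 20 of the 67 regions (29.9%), beside 26.9% of the whole list.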
